A study of Rattus norvegicus with 4 samples.

Results

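The serotonin receptors on the array were 10 genes (Htr1a, Htr1b, Htr1d, Htr2a, Htr2c, Htr3a, Htr4, Htr5a, Htr6 and Htr7), read by 17 of the 1263 probe sets that are not Affymetrix controls. A probe set is a group of short probes against 1 transcript, and the members are those whose only gene symbol in the platform annotation is one of these 10. The measurements came from rat cortical neurons prepared at embryonic day 17 and grown for 14 days in Neurobasal medium with B27 supplement. The control group (2 arrays) received phosphate-buffered saline for 4 h and the KCl group (2 arrays) received 25 mM KCl for 4 h, which depolarizes the membrane. No genetic change or other agent is named for either group, and neither rat strain nor sex is given in the labels. Titles and treatment protocols set the groups, although the description label words all 4 samples as unstimulated. Whether replicate samples were grown as separate cultures is not stated, so the p-values rest on a spread that may be technical.

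Serotonin receptors translate released serotonin into electrical and biochemical signals in the receiving cell. All but one of the families signal through G proteins. The Htr1 and Htr5 receptors couple to Gi/o, which lowers cyclic AMP and opens potassium channels, the Htr2 receptors to Gq, which drives phospholipase C, and Htr4, Htr6 and Htr7 to Gs, which raises cyclic AMP. Htr3a is the exception: it encodes a subunit of a cation channel that serotonin opens directly, and in the cortex it is known as a gene of inhibitory interneurons.

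Signal was low for most probe sets of the family, and Htr3a gave the brightest of them. Intensities are the deposited values on a linear scale in arbitrary units. Background was taken as 73.7, the highest value of 19 control probe sets for bacterial and yeast transcripts on any array (median 9.05), and a probe set exceeded it in a group when both arrays of the group did. By this rule 3 of the 17 receptor probe sets (17.6%) exceeded background in both groups, 1 each for Htr3a, Htr5a and Htr6, against 654 of all 1263 (51.8%). A further 3, for Htr1a, Htr1d and Htr7, exceeded it on some arrays, and the other 11 did so on none. For 4 receptors, Htr1b, Htr2a, Htr2c and Htr4, no probe set exceeded background on any array. These counts depend on the level chosen. With mouse and opposite-strand controls added, a choice made after seeing the data, the level was 171 and Htr3a alone exceeded it, and over the other levels tried the count of receptor probe sets ran from 0 to 7. A value within background does not show that the transcript was absent.

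In the control group the order of mean signal was Htr3a (256), Htr5a (118), Htr6 (103), Htr1a (80.5) and Htr7 (69.9), each by its brightest probe set. After KCl it was Htr3a (188), Htr5a (114), Htr6 (85.7), Htr1d (63.5) and Htr1a (58.5). The Htr3a signal exceeded that of Htr5a on all 4 arrays. The arrays of Htr5a overlapped with those of Htr6 in the control group, as those of Htr6 did with Htr1a. This is an order of probe signals and not of transcript amounts, because probe sets differ in how strongly they bind. By mean signal over the 4 arrays these probe sets of Htr3a, Htr5a and Htr6 lay at percentiles 63.9, 49.96 and 45.9 of the 1263.

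**Figure D1:**
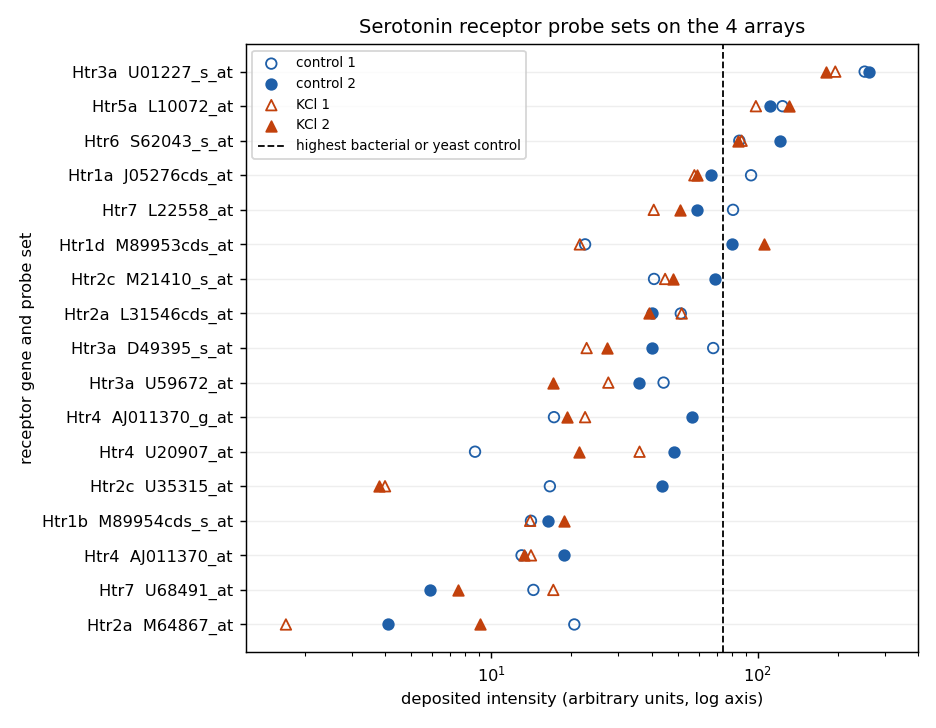
Deposited intensity (log axis, arbitrary units) of the 17 serotonin receptor probe sets on each of the 4 arrays, circles for control and triangles for KCl, ordered by mean, with the background level of 73.7 as a dashed line. Of these, 3 probe sets, for Htr3a, Htr5a and Htr6, lie to the right of the line on all 4 arrays.

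No serotonin receptor changed by the test across all probe sets. KCl was compared with control by limma on log2 intensities, called at a Benjamini-Hochberg adjusted p below 0.05, over the 947 probe sets left after the dimmest 25% were set aside. Of the receptors, 9 probe sets covering 8 genes were tested, and 8 probe sets, among them all those of Htr1b and Htr4, were too dim. None of the 9 was called, against 102 of 947 tested probe sets (10.8%). At a looser threshold, an adjusted p below 0.25, chosen after seeing the data, 1 was (Htr3a U01227_s_at), against 328 of 947 (34.6%). At an unadjusted p below 0.05 there was 1, on Htr3a, against 242 of 947 (25.6%). Of the 9, 3 (Htr2a, Htr2c and 1 of Htr3a) lay within background on all 4 arrays. Of the 9 log2 changes, 8 were below 0, with a median of −0.24, while 60.3% of all tested changes were below 0, with a median of −0.10. In 4 of the 9 both KCl arrays lay below both control arrays, which 346 of 947 tested probe sets (36.5%) also showed. In 0 of the 9 did both KCl arrays lie above both control arrays, against 203 of 947 (21.4%). For a single probe set, the smallest two-sided p that an exact permutation of 2 against 2 arrays allows is 0.333.

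**Figure D2:**
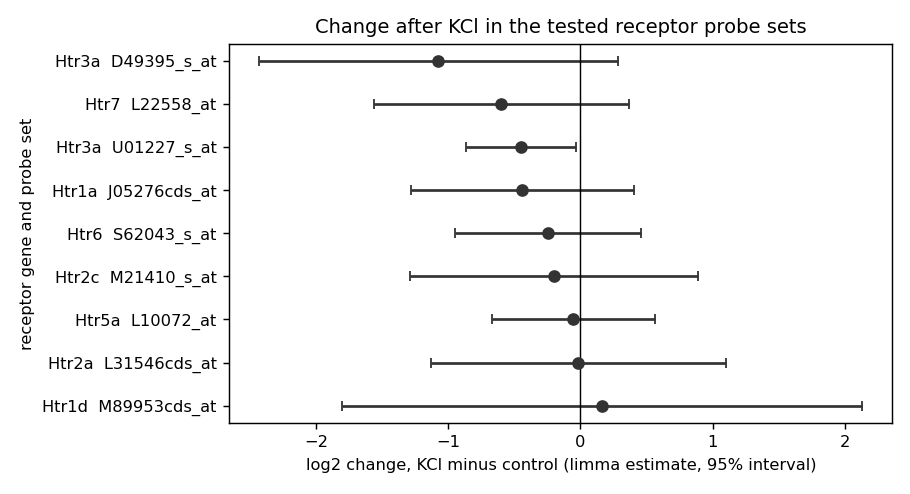
Log2 change (KCl minus control) of the 9 tested serotonin receptor probe sets, with limma's 95% interval from 2 arrays per group. The interval of 8 probe sets includes 0, and that of the bright Htr3a probe set runs from −0.87 to −0.03 before any adjustment for multiple tests. The Htr2a, Htr2c and lower Htr3a points rest on values within background on all 4 arrays.

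Htr3a, the ionotropic receptor subunit, was measured by 3 probe sets. On U01227_s_at the control arrays read 251 and 262 and the KCl arrays 195 and 181. The groups did not overlap, and the gap between them was larger than the spread within either pair. Both KCl arrays lay below both control arrays in 36.5% of all tested probe sets. The means were 256 ± 7.1 in controls and 188 ± 10.2 after KCl (SD, n = 2 arrays), a ratio of control to KCl of 1.37. The log2 change was −0.45 ± 0.18 (SE; limma adjusted p = 0.17), which did not pass, and its adjusted p lay between 0.14 and 0.39 over 11 alternative analyses. Leaving out single arrays moved the log2 change between −0.50 and −0.39.

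The other 2 Htr3a probe sets lay within background on every array. D49395_s_at read 68.0 and 40.2 in controls and 22.8 and 27.1 after KCl. It did not pass (limma adjusted p = 0.28, and 0.18 to 0.61 over its alternatives), and no fold is given because all 4 values were within background. U59672_at, too dim to be tested, read 44.3 and 35.7 in controls and 27.5 and 17.1 after KCl. On both of these the KCl values were below the control values, but an order of values within background is not read as a lower Htr3a level, and the probe sets share the same 4 RNA samples. In Affymetrix naming the ending _s_at, carried by U01227_s_at and D49395_s_at, marks a probe set with probes that more than 1 transcript shares.

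**Figure D3:**
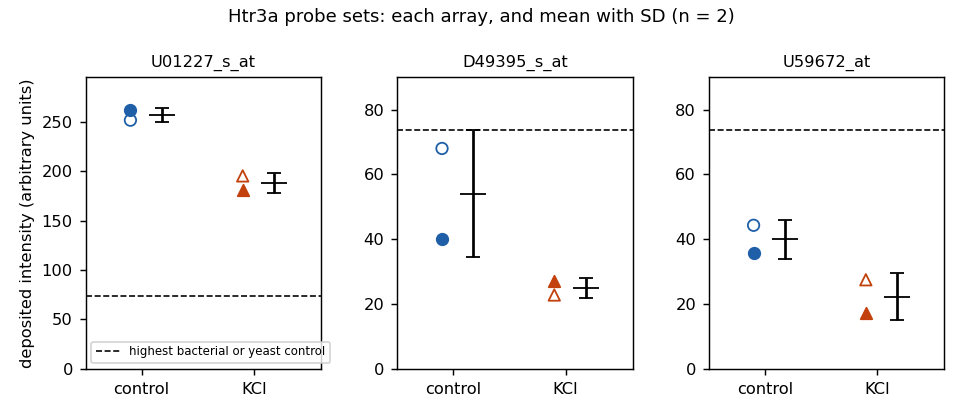
Deposited intensity (arbitrary units, each panel with its own axis from 0) of the 3 Htr3a probe sets on every array, with group mean and SD (n = 2) beside the points and the background level of 73.7 dashed. U01227_s_at alone is above background, with both KCl values below both control values, and every value of the other 2 probe sets lies under the dashed line.

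Genes of inhibitory interneurons, among which Htr3a is known in the cortex, were read on the same arrays. The list is of interneurons in general and was not drawn up for the cells that express Htr3a. Of 6 tested interneuron markers, 4 fell (Gad1 and Slc32a1, for GABA synthesis and vesicle loading, Sst and Nxph1) and none rose. Over all 947 tested probe sets 102 (10.8%) were called, 50 lower and 52 higher. The neuropeptide genes Npy and Cck had KCl means above their control means and did not pass, Npy with 600 and 709 (log2 change 0.23, limma adjusted p = 0.41) and Cck with 6520 and 7015 (0.11, adjusted p = 0.53). The summed intensity of all 8 interneuron marker probe sets was 17242 and 17099 in the control group against 10988 and 11663 in the KCl group. Vip, Calb2, Reln, Pvalb and Gad2 had no probe set with their symbol alone. Of 7 astrocyte markers 6 rose (Apoe, Gja1, Glul, S100b, Slc1a3 and Vim), on 1 or more probe sets each. The summed intensities of the astrocyte marker probe sets were 9464 and 9322 in controls against 20919 and 16191 after KCl. Astrocyte markers that rose numbered 4 with quantile normalization, 3 with median centring or the replicate block and 0 without the intensity trend. Without control 1, and likewise without control 2, 1 interneuron marker (Sst) fell and 0 astrocyte markers rose. The part of either in the Htr3a values was not tested. In these cultures fewer cells of a type and less RNA per cell cannot be told apart. The hexokinase control, whose 3′ to 5′ ratio is a sign of RNA integrity, gave 2.25 and 2.00 in controls against 2.49 and 2.67 after KCl, and Gapdh gave 1.17 to 1.23. Beta-actin gave 1.08 to 1.12, and for both beta-actin and Gapdh the KCl values lay between the control values. The part of RNA integrity in the result was not tested either.

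By the distance between 4 mean-centred log2 values, the probe sets of other genes nearest to U01227_s_at were those of Syt7 (distance 0.075, log2 change −0.41), Pik3c3 (0.11, −0.43) and Kcnd3 (0.12, −0.44). None of the 3 was called, with limma adjusted p-values of 0.70, 0.24 and 0.18. Likeness over 4 arrays is a description of these arrays alone.

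Among the Gi/o-coupled receptors, Htr5a was the one above the level of 73.7, though not above that of the wider control set. Its probe set L10072_at read 124 and 111 in controls and 98.3 and 130 after KCl, so the groups overlapped. The log2 change was −0.05 ± 0.27 (limma adjusted p = 0.93), with a 95% interval from −0.67 to 0.57. Its sign turned when control 1 or KCl 1 was left out, with values between −0.26 and 0.15. Htr1a, the inhibitory receptor that also acts as an autoreceptor on serotonin neurons, read 94.3 and 66.6 in controls and 57.8 and 59.2 after KCl on J05276cds_at. Only the first of these 4 values exceeded background. The groups did not overlap, and the log2 change of −0.44 ± 0.37 did not pass (limma adjusted p = 0.51). It was −0.19 without control 1, the array above background, and −0.69 without control 2.

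Htr1d, a presynaptic inhibitory receptor, gave unlike replicates. On M89953cds_at it read 22.5 and 80.3 in controls and 21.5 and 105 after KCl, so that array 2 of each group was above background and array 1 was not. The log2 change was 0.16 ± 0.86, the widest error of the family (limma adjusted p = 0.93), and it ran from −0.98 to 1.31 with single arrays left out. Its close relative Htr1b stayed between 14.0 and 18.8 on all 4 arrays of M89954cds_s_at, among the dimmest 25%.

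The Gq-coupled receptors Htr2a and Htr2c, with 2 probe sets each, lay within background throughout. Htr2a, the main excitatory serotonin receptor of cortical pyramidal cells, read 51.4 and 40.1 in controls and 51.8 and 39.0 after KCl on L31546cds_at, nearly the same pair of values in both groups. It did not pass (limma adjusted p = 0.98). The other Htr2a probe set, M64867_at, ranged from 1.7 to 20.5. Htr2c read 40.8 and 69.3 in controls and 44.9 and 48.0 after KCl on M21410_s_at and did not pass (limma adjusted p = 0.83). Its second probe set, U35315_at, read 16.6 and 43.7 in controls and 4.0 and 3.8 after KCl, so its groups did not overlap. As all values of both receptors were within background no fold is given. With dim probe sets kept in the test U35315_at had a limma adjusted p of 0.055, the smallest of the family in any analysis run.

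Of the Gs-coupled receptors, Htr6 was above 73.7 on all 4 arrays, and on none above the level of the wider control set. S62043_s_at read 85.2 and 121 in controls and 86.9 and 84.5 after KCl, and the groups overlapped. The log2 change was −0.24 ± 0.31 (limma adjusted p = 0.67), and it was 0.0083 without control 2, the array with the high value. Htr7 read 80.7 and 59.1 in controls and 40.7 and 51.1 after KCl on L22558_at. The groups did not overlap, 1 of the 4 values exceeded background, and the log2 change of −0.60 ± 0.42 did not pass (limma adjusted p = 0.42). It was −0.37 without control 1, the array above background, and −0.82 without control 2. Its other probe set, U68491_at, ranged from 5.9 to 17.1 with overlapping groups. Htr4, known to favour transmitter release through cyclic AMP, stayed between 8.7 and 56.4 on its 3 probe sets, all of them among the dimmest 25%.

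Errors were larger for these mostly dim probe sets than over all tested ones. The intensity trend of the test lets the SE vary with signal. Errors of dim probe sets in related families varied. Drd4 M84009_at (SE 0.44) and Chrm2 AB017655_s_at (0.47) lay near the receptor median given below. The SE was larger than these for Drd3 A17753cds_s_at, Adra1d M60654_at and Drd1 S46131mRNA_r_at, and smaller for Chrm3 AB017656_s_at. Whether low signal accounts for the receptor errors was not tested. The SE of a log2 change had a median of 0.42 over the 9 tested receptor probe sets, against 0.21 over all 947, and the smallest log2 change called anywhere was 0.40 in size.

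The promoters of Htr5a and Htr6, the G-protein-coupled receptors above the 73.7 level, are shown because depolarization is known to act on genes through CREB, which binds the cyclic AMP response element TGACGTCA and its half-site TGACG. Each is the 250 bases before the gene's annotated start in RefSeq (GRCr8), 5′ to 3′ on the gene's strand, with the half-site (TGACG or, on the other strand, CGTCA) in capitals. Htr5a lies at chr4:8188486-8188735 and Htr6 at chr5:156595148-156595397, both on the minus strand.
Htr5a: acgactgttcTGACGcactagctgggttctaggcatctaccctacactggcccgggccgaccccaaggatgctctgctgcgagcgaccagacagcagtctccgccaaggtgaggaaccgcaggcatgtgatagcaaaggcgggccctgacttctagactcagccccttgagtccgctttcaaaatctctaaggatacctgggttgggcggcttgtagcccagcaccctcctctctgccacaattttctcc
Htr6: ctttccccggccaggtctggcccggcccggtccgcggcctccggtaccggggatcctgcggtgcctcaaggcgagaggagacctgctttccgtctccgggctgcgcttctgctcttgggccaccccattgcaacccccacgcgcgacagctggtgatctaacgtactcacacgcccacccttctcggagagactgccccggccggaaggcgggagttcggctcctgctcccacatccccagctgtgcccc
The Htr5a window held 1 half-site, beginning 240 bases before the start, and the Htr6 window held none. Of the 10 receptor genes 6 had a promoter in the table, and 2 of these, Htr5a and Htr7, held a half-site. The half-site occurred in 18.2% of all 33469 promoter windows of this length. The full element, which contains the half-site, occurred in 1.59% of all windows and in 0 of the 6. A match in these letters is a description and not a binding site, and neither Htr5a nor Htr7 was called after KCl.

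Of the serotonin system outside the 10 receptors, 2 further receptor genes and 6 genes for synthesis, transport and breakdown were on the array. Htr2b, Htr3b, Slc18a1 and Tph2, the neuronal enzyme of serotonin synthesis, had no probe set with their symbol alone and are not analysed here. Htr1f and Htr5b, further members of the Htr1 and Htr5 families on the array, lay within background on all 4 arrays, and Htr5b, at 5.3 and 33.1 in controls and 42.8 and 63.8 after KCl, did not pass (limma adjusted p = 0.24). Htr1f was too dim to be tested. Of the 6 genes for synthesis, transport and breakdown, 4 were tested and 0 were called by limma, also 0 at an unadjusted p below 0.05. The shares over all 947 tested probe sets were 10.8% and 25.6%. Maoa, the monoamine oxidase that degrades serotonin, was the one above background in both groups, and its brightest probe set, S45812_s_at, read 1003 and 797 in controls and 923 and 896 after KCl. Tph1, the peripheral form of the first enzyme of serotonin synthesis, stayed between 9.1 and 22.9, and the serotonin transporter gene Slc6a4 gave 146 and 49.4 in controls and 121 and 168 after KCl on its brighter probe set X63995_at. Neither group of Slc6a4 values stood apart from the other.

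Genes of the receptors' signalling pathways were read in the same test, and differences between the pathways were not tested. Over all tested probe sets 102 of 947 (10.8%) were called. Many genes of these pathways, among them Gnai1, Gnaq, Gna11 and Prkaca, had no probe set with their symbol alone. Among the transducers of Gi/o signalling 0 of 3 tested genes were called. Kcnj3, a potassium channel gene, had the smallest p on U72410_s_at, which read 19.0 and 14.7 in controls and 50.5 and 58.9 after KCl, all within background (limma adjusted p = 0.15, and called without the intensity trend). The brighter Kcnj3 probe set, U09243_at, had a log2 change of −0.10 (limma adjusted p = 0.90). Gnao1, the Go subunit gene, which was bright, had log2 changes of 0.03 and 0.05 on its 2 probe sets. Of 7 tested genes of the Gs side 0 were called, and the smallest limma adjusted p was 0.080, for Pde4a, a cyclic AMP phosphodiesterase on M25348_s_at (log2 change −0.99 ± 0.31), while its second probe set gave −0.10. In the Gq list 2 of 5 tested genes fell and none rose, each on a single probe set, and 1 of the 2, Prkcz, is a protein kinase C that these signals are not known to activate. Prkcb, a calcium- and lipid-activated protein kinase C, fell on K03486_s_at with a log2 change of −0.45 ± 0.11, and Prkcz, the atypical form, fell on J04532_at with −1.05 ± 0.26 (limma adjusted p = 0.038 and 0.037). Their other probe sets, 2 for Prkcb and 1 for Prkcz, did not pass. Neither gene was called without control 1, without control 2, without the intensity trend, with the replicate block or with dim probe sets kept, and Prkcz was not called without KCl 1 nor Prkcb with quantile normalization or median centring. Without KCl 2 Plcb1, a phospholipase C gene, fell as well, and on the Gs side Pde4a fell without KCl 1 and Prkar2b without KCl 2.

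Among related receptor families, 0 of 5 tested dopamine receptor genes and 0 of 7 tested adrenergic receptor genes were called. The share called among all 947 tested probe sets was 10.8%. Of 5 muscarinic acetylcholine receptor genes Chrm1 and Chrm3 fell, each on 1 probe set, while a second probe set of each did not pass (log2 change 0.03 for Chrm1 and −0.29 for Chrm3, limma adjusted p = 0.97 and 0.68). Neither was called without control 1, without control 2, without the intensity trend or with the replicate block. Without KCl 2 the dopamine receptor gene Drd1 fell. Median log2 changes of the tested probe sets were 0.14 for the dopamine, −0.02 for the adrenergic, −0.21 for the muscarinic and −0.24 for the serotonin receptors. The differences between families were not tested. By the 73.7 level more genes of these families were above background, 3 of 5 dopamine, 7 of 8 adrenergic and 4 of 5 muscarinic receptor genes. For serotonin it was 3 of 10. This contrast did not hold with the wider control set, whose highest value was 171.4. At that level Drd3 X53944_at, Chrm3 M16407_at and Htr3a U01227_s_at alone stayed above on every array. No adrenergic receptor probe set did, the nearest being Adra1d AF071014mRNA_s_at with 170.8 on KCl 1. The contrast therefore belongs to the 73.7 level only.

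**Figure D4:**
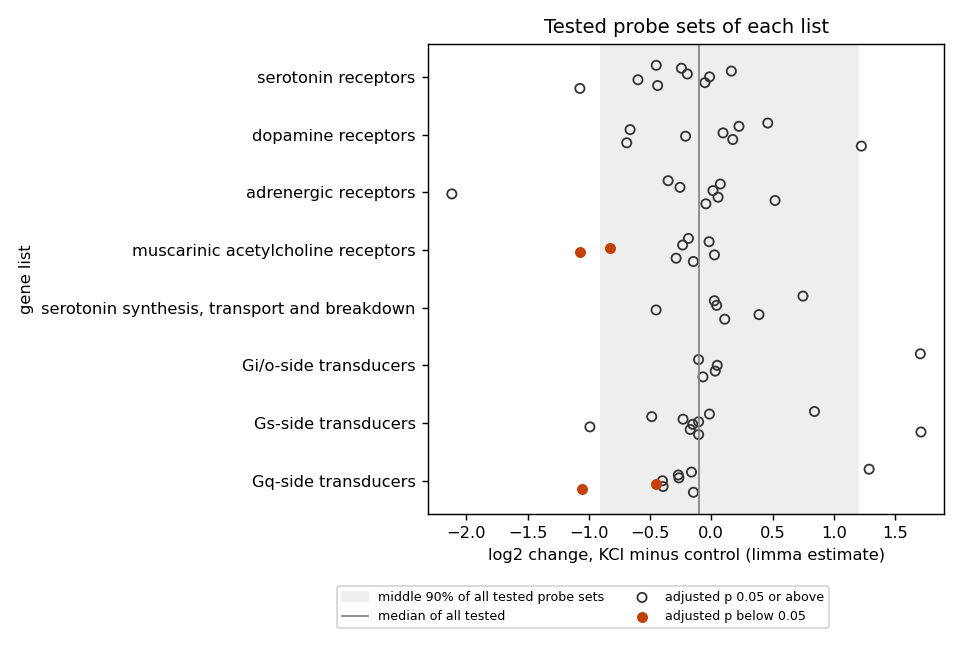
Log2 change (KCl minus control) of every tested probe set in the serotonin receptor family, 3 related receptor families and 4 lists of serotonin metabolism and signalling, over the middle 90% of all 947 tested probe sets in grey. Filled points are probe sets with a limma adjusted p below 0.05, 2 muscarinic and 2 in the Gq list, and none belongs to the serotonin receptors.

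Activity-induced genes and cell type markers were read on the same arrays, where 102 of all 947 tested probe sets (10.8%) were called. Fos, Junb, Nr4a1 and Bdnf, which neuronal activity is known to induce, all rose (4 of 4 genes, also with each array left out in turn). All 8 neuron markers on the array exceeded background in both groups, as did 6 of 6 interneuron and 5 of 7 astrocyte markers, so that signal of astrocyte genes was present beside that of neurons. Of the neuron markers Snap25 rose, on AB003991_at alone (log2 change 0.43, limma adjusted p = 0.032), and none fell. Snap25 was not called without control 1, without control 2, without the intensity trend, with the replicate block or with dim probe sets kept. With quantile normalization Syp fell. Apoe, a lipid carrier of astrocytes, had group means of 2499 in controls and 6061 after KCl on its brighter probe set X04979_at. Of the other lists 2 of 5 oligodendrocyte and 0 of 2 microglial or immune markers exceeded background. Log2 intensities of the 947 tested probe sets differed with an SD of 0.54 between the control arrays and 0.55 between the KCl arrays, against 0.76 to 0.83 between a control and a KCl array.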

How the data were processed

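Per the labels, biotin-labelled cRNA from total RNA was hybridized to 1-colour Affymetrix arrays for neurobiology. The values are the authors' probe set intensities on a linear scale, as deposited. How they were computed and scaled is not given in the sources used here. They were taken to log2 without further scaling. Members were matched by the platform annotation; all 17 probe sets also matched their current RefSeq symbol through the gene ID. The 59 Affymetrix control probe sets and the dimmest 25% of the rest (316 probe sets, mean intensity up to 33.3) were left out. The test was limma 3.58.1 in R 4.3.3 (lmFit, eBayes with an intensity trend), two-sided, with Benjamini-Hochberg adjustment over 947 probe sets. It was tested on simulated data. Each receptor probe set is named; of other lists, the genes called and up to 2 with the smallest p. Others, such as Maoa, Tph1 and Gnao1, were picked with their values known. The members and lists were chosen with earlier results of these data known. Alternatives covered scaling, pseudocount, dim filter, variance model, replicate block, background level, call threshold and leaving out each array. The number of arrays limits the precision.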

Additional observations from a re-analysis of the deposited data

How the results depend on the processing

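At an adjusted p below 0.05 no serotonin receptor probe set was called in any of 11 alternative analyses (limma, quantile normalization, median centring, a pseudocount of 16, no filter on dim probe sets or the dimmest 50% left out, no intensity trend, a replicate block, and each array left out); at an unadjusted p below 0.05 these gave 0 to 2. With an adjusted p below 0.25 in the main analysis, added after seeing the data, 1 receptor probe set (Htr3a U01227_s_at) and 328 of all were called. Of 91 recomputed log2 changes 82 kept their sign. The 9 that turned belonged to Htr2a L31546cds_at (0.060 with quantile normalization, −0.22 to 0.19 with single arrays left out) and, with single arrays left out, to Htr1d (−0.98 to 1.31), Htr2c M21410_s_at (−0.58 to 0.19), Htr5a (−0.26 to 0.15) and Htr6 (−0.50 to 0.0083). Over all probe sets 102 were called, 21 without the intensity trend and 50 with the replicate block. With single arrays left out the count ran from 11 to 178 (14 without control 1, 11 without control 2, 178 without KCl 2). Each of those fits estimated the spread from fewer samples. The cause of the differences between these counts was not tested. Replicate deviations of the control and KCl groups were close to uncorrelated over the tested probe sets (Pearson r −0.03). This cannot show whether samples with the same number shared a culture or batch. The replicate block left 0 receptor probe sets called. The count of receptor probe sets above background was 3, also with the highest control of each array and with single arrays left out, but 7 with the 90th percentile of the control probe sets, 0 with 3 times the highest, and, in a choice made after seeing the data, 1 (Htr3a U01227_s_at) with mouse and opposite-strand controls added, whose highest value was 171. Htr5a and Htr6 are therefore above background by the narrower definitions only.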

Other observations

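Replicates of Htr1d were unlike in both groups, as given above. A Drd3 probe set (8.5 and 37.3 in controls, 14.3 and 121 after KCl) and one of Aanat, which encodes the enzyme that acetylates serotonin on the way to melatonin (28 and 115 in controls, 31.3 and 127 after KCl), also read higher on array 2 of each group. They were chosen after their values were seen, and the lower values of all 3 lay within background. Of the 947 tested probe sets, 3 were over 3-fold higher on array 2 in both groups and 0 on array 1. Drd3 had a second probe set, X53944_at, that read 558 and 653 in controls and 656 and 760 after KCl.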
